A study of Homo sapiens with 35 samples.

Results

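The genes of serine, one-carbon, proline and asparagine synthesis were followed in RPMI-8226 cells, an established human multiple myeloma line, before and after they met carfilzomib, a proteasome inhibitor, for a short time. The 10 genes were chosen by name, as the enzymes PHGDH, PSAT1, PSPH, SHMT1, SHMT2, MTHFD2, ALDH1L2, PYCR1, ALDH18A1 and ASNS. The rule used no measured value, but it was set with earlier results of these data known. Each was read from its protein-coding entry in the deposited count table, which holds 19665 such entries, and 17999 of these had at least 1 count and were tested. All 10 genes were among them.

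The cells received 750 nM carfilzomib for 1 h, and RNA libraries were made from 5 subcultures at each of 7 time points, which were day 0 and days 1, 2, 4, 6, 8 and 10 counted from the drug, giving 35 libraries. The labels list carfilzomib for day 0 as well, whereas the study's methods state that day 0 cells were taken before the drug, and day 0 was therefore treated as the baseline. The study's methods describe the subcultures of all days as split from a single expanded culture of the line, whereas its legends speak of independent experiments. If the former holds, p-values cover only the spread between subcultures, which may be technical, and not that between separate expansions. No untreated culture was carried to the later days, so time in culture, medium changes and carfilzomib cannot be told apart. Cells from day 2 on were collected just before their medium was replaced.

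Serine is made from the glycolytic intermediate 3-phosphoglycerate in 3 steps, and it then gives up a carbon to folate, which carries such units to purine, thymidylate and methionine synthesis. Most of this carbon is released in mitochondria, and a parallel set of enzymes works in the cytosol. Proline is made from glutamate and asparagine from aspartate. Several of these genes are textbook targets of ATF4, the transcription factor of the integrated stress response, which rises when amino acids run short. Plasma cells and the myelomas derived from them secrete large amounts of protein and use amino acids accordingly.

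The libraries held 6519392 to 10962890 counts. All 10 genes were among the 12340 of 17999 tested genes that passed the usual filter on low counts. The shares and medians given below for all tested genes include those that did not pass this filter. The summed level of 10 plasma cell markers was 6623 to 7534 counts per 1000000 (CPM) on day 0. It was 2931 to 3270 on day 1 and 7491 to 8831 on day 10. Most of the drop on day 1 was that of JCHAIN, the joining chain of secreted antibodies, from 4757 ± 360.1 to 1437 ± 88.7 CPM (SD, n = 5). Of the 10 markers, 6 were lower, 1 was higher and 3 did not pass on that day, with XBP1, the secretory transcription factor, at 441 and 456 CPM on days 0 and 1. In bulk RNA, fewer cells of a type and less RNA per cell cannot be told apart. Among 10 markers of other cell types, MPO and HBB averaged at most 0.121 CPM on any day, whereas CD68 averaged 79.8 to 134 and EPCAM 58.7 to 89.9. The summed level of the other markers was 164 to 211 CPM on day 0 and 161 to 181 on day 1. The part of these shifts in the results was not tested.

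Most of the 10 genes fell after the pulse, came back part of the way by day 6, dipped again on day 8 and rose to day 10. On day 1, 8 of 10 were lower than on day 0 (27.3% of all tested genes were) and SHMT1 and ALDH18A1 were higher (25.4% of all tested genes were), at Q ≤ 0.05 by edgeR's quasi-likelihood test with adjustment over all tested genes. On day 2, 8 were lower (24.4% of all genes), SHMT1 was higher (23.2%) and ALDH18A1 did not pass. On day 4, 9 were lower (20.1%), all but SHMT1, which was higher (19%). On day 6, 7 were lower (17%) and none was higher (17.5%), and on day 8 again 9 were lower (18.6%) and SHMT1 was higher (18.2%). On day 10, 6 were still lower (15.8%) and SHMT1 was higher (16.1%). These 6 comparisons share the day 0 libraries.

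The sizes are set here beside those of the tested genes at large. Because the 10 genes were chosen with earlier results of these data known, the contrast is a description and no independent evidence. The median log2 fold change of the 10 genes was −1.38, −1.25, −0.83, −0.38, −0.82 and −0.26, in the order of days 1 to 10, beside medians of −0.06, −0.04, −0.02, 0, −0.01 and −0.02 over all tested genes. With a fold change above 2 asked for as well, 6 of 10 were lower on day 1 (13.2% of all genes), 5 were on day 2 (8.94%), 4 were on day 4 (5.29%), 2 were on day 6 (3.52%), 4 were on day 8 (4.58%) and none was on day 10 (3.52%). The only rise of that size was that of SHMT1 on day 2 (6.32%). In the 5 libraries of day 1, 8 of the genes lay below every day 0 library and 2 above, beside 20.1% and 20.8% of all genes, and on day 10, 4 lay below and 1 above, beside 11.5% and 11.3%.

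**Figure D1:**
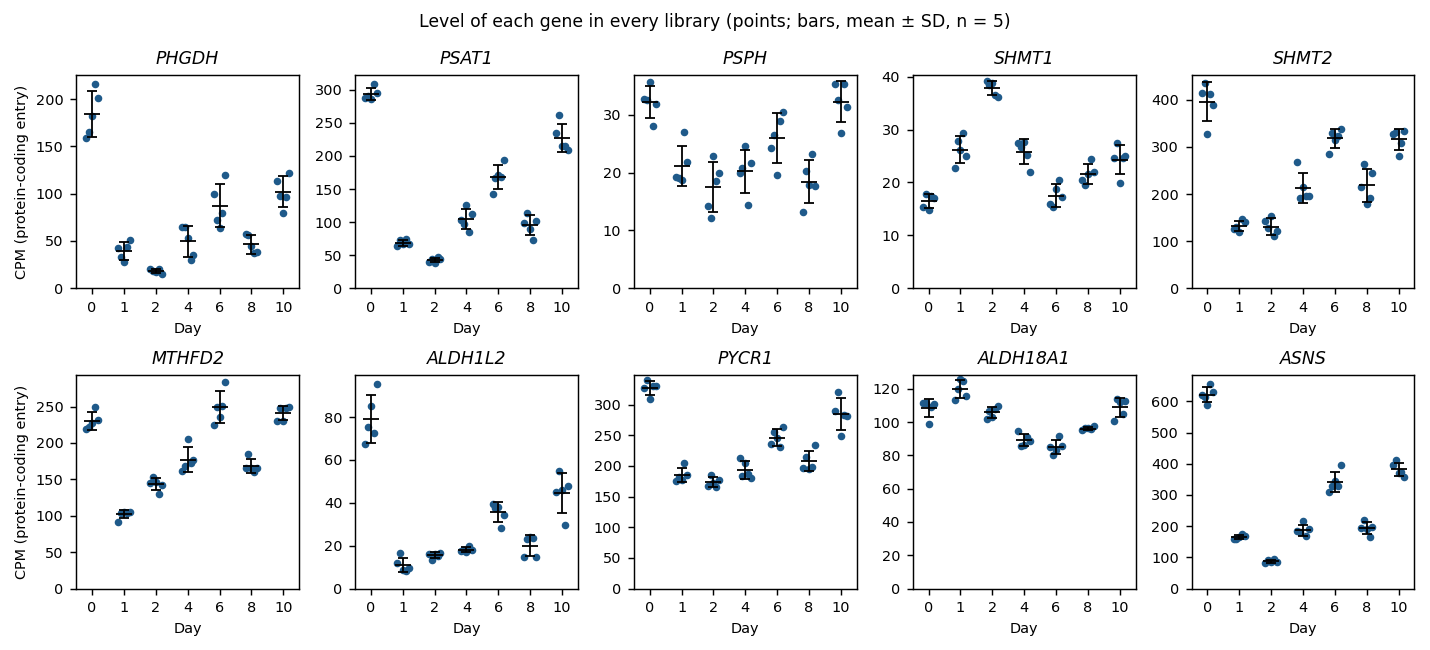
CPM of the protein-coding entry of each gene (y axis, linear, from 0) by day (x axis, evenly spaced), with a point per library and the mean ± SD of 5 libraries. Most panels show a low on day 1 or 2 and a smaller dip on day 8, SHMT1 is highest on day 2 at 37.8 CPM, and ALDH18A1 stays between 85.1 and 119.9 CPM.

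Serine synthesis starts with PHGDH, the dehydrogenase that takes 3-phosphoglycerate out of glycolysis (chromosome 1, 119648411 to 119744218, plus strand, 12 exons, GENCODE release 44 on GRCh38). Its level in the 5 libraries of day 0 was 158, 165, 183, 216 and 201 CPM (replicates 1 to 5, as in each such series of values). On day 2 it was 20.8, 18.2, 17.5, 20.2 and 15.6 CPM, and on day 10 it was 114, 97.9, 79.5, 96.6 and 122 CPM. Every library of days 2 and 10 lay below every day 0 library, and the day 10 libraries all lay above those of day 2. On day 2, PHGDH had the deepest fall of the 10 genes, and its log2 fold change of −3.32 ± 0.18 (SE) was a 9.98-fold reduction (Q = 3.85e-19). It stood at −2.22, −1.89, −1.08 and −1.98 on days 1, 4, 6 and 8, and at −0.86 ± 0.16 on day 10 (Q = 2.38e-05).

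PSAT1 encodes the transaminase of the middle step, which hands an amino group from glutamate to the intermediate (chromosome 9, 78297125 to 78330093, plus strand, 9 exons). The day 0 libraries held 287, 290.1, 286, 309 and 295 CPM. Those of day 2 held 40.3, 44.7, 37.9, 46.9 and 43.6 CPM, and those of day 10 held 234, 262, 215, 215 and 209 CPM. Days 2 and 10 did not overlap with day 0. The log2 fold change was −2.78 ± 0.09 on day 2 (6.88-fold lower, Q = 4.22e-26), then −0.80 ± 0.08 by day 6, −1.62 ± 0.09 by day 8 and −0.37 ± 0.08 by day 10 (Q = 0.000459).

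PSPH, the phosphatase of the last step (chromosome 7, 56011051 to 56051604, minus strand, 8 exons), changed less than PHGDH and PSAT1. On day 0 it also had a lower level per transcript length than these genes. It ranged from 28.1 to 35.7 CPM on day 0, from 12.2 to 22.9 CPM on day 2 and from 26.8 to 35.4 CPM on day 10. Its log2 fold change was −0.88 ± 0.14 on day 2 (Q = 1.67e-06) and −0.79 ± 0.15 on day 8 (Q = 1.99e-05). It was −0.31 ± 0.14 on day 6 (Q = 0.088) and 0.00 ± 0.14 on day 10 (Q = 1), and on both days the libraries overlapped with those of day 0. On day 6 it passed as lower with all biotypes summed, at −0.21 (Q = 0.0234), and with only the days compared, at −0.30 (Q = 0.0374), which would make 8 of the 10 genes lower on that day.

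The serine synthesis genes thus changed by unequal amounts, which was tested as log2 ratios of counts within a library, where library scaling cancels. Over 9 gene pairs and 6 days, 54 exact two-sided permutation tests of 5 against 5 libraries were made, of which 45 passed Q ≤ 0.05. The smallest p that 252 assignments allow is 0.00794, and it gave Q = 0.011 here. The PHGDH to PSPH ratio was 5.69 at baseline, 1.07 on day 2 and 3.13 by day 10, and was below day 0 in every library on each of the 6 days (exact permutation, Q = 0.011). The PSAT1 to PSPH ratio was 9.11 on day 0, 2.48 on day 2 (exact permutation, Q = 0.011) and 7.02 on day 10 (Q = 0.0299). The day 10 call was lost without replicates 1, 2, 4 or 5 of day 0, with Q of 0.0559 to 0.0598. The PSAT1 to PHGDH ratio of counts was 1.60 at baseline, 2.31 on day 2 (exact permutation, Q = 0.011), 2.07 by day 8 and 2.24 by day 10 (Q = 0.0299 for both). Without replicate 5 of day 8 the day 8 call was lost (Q = 0.0571). On days 1, 4 and 6 this ratio was 1.78, 2.20 and 1.98, and did not pass (Q = 0.429, 0.116 and 0.146). It passed on these days with all biotypes of each symbol summed, where the log2 changes were 0.22, 0.36 and 0.13 (Q = 0.0186, 0.0357 and 0.0274), beside 0.15, 0.46 and 0.30 for the coding entries. It also passed on day 4 without its replicate 1 or 2 (Q = 0.0466 and 0.0373) and on day 6 without its replicate 1 (Q = 0.0373). The protein-coding entry of PHGDH held 47.9% to 87.4% of the symbol's counts on day 1. It held 46.7% to 88.8% on day 4 and 43.8% to 79.1% on day 6, beside 56.5% to 77.0% on day 0. The part of this spread in the ratio was not tested.

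Serine hydroxymethyltransferase splits serine into glycine and a folate-bound carbon. SHMT2 is the mitochondrial form (chromosome 12, 57229573 to 57234935, plus strand, 12 exons) and SHMT1 the cytosolic form (chromosome 17, 18327860 to 18363563, minus strand, 12 exons), and their transcripts moved in opposite directions. SHMT2 measured 414, 435, 328, 413 and 389 CPM on day 0. It measured 125, 130.3, 119, 146 and 139.7 CPM on day 1 and 327, 332, 281, 309 and 334 CPM on day 10. All day 1 libraries were below all day 0 libraries, whereas day 10 overlapped with day 0 through replicate 3 of day 0. The log2 fold change of SHMT2 was −1.58 ± 0.09 on day 1 and −1.59 ± 0.09 on day 2 (3.02-fold lower, Q = 3.46e-18), and −0.32 ± 0.09 on both day 6 (Q = 0.00485) and day 10 (Q = 0.00454).

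SHMT1 was the least abundant of the 10 genes per unit of transcript length on day 0. It measured 15.3, 17.8, 14.8, 17.4 and 17.1 CPM on day 0. On day 2 it measured 39.2, 38.5, 38.8, 36.6 and 36.2 CPM, and on day 10 it measured 24.6, 27.4, 19.9, 24.6 and 25.0 CPM. Both days lay above day 0 in every library. The log2 fold change was 0.67 ± 0.10 on day 1, 1.20 ± 0.09 by day 2 (2.30-fold higher, Q = 1.19e-14) and 0.56 ± 0.10 on day 10 (Q = 8.31e-06). On day 6 it was 0.09 ± 0.10 (Q = 0.549).

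The SHMT2 to SHMT1 ratio in a library was 23.8 on day 0 and fell to 5.04 on day 1 and 3.44 on day 2. On days 4, 6, 8 and 10 it was 8.19, 18.1, 10.0 and 13.0, and on each of these days every library lay below every day 0 library (exact permutation, Q = 0.011).

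MTHFD2 encodes the mitochondrial dehydrogenase and cyclohydrolase that carries the folate-bound unit onward (chromosome 2, 74186172 to 74217565, plus strand, 8 exons). It measured 219, 221, 227, 249.5 and 231 CPM on day 0. It measured 91.9, 104, 105, 103 and 105 CPM on day 1, and 225, 249, 235, 251 and 284 CPM on day 6. The low was thus on day 1, where no library reached the day 0 range, and by day 6 the libraries overlapped. Its log2 fold change was −1.17 ± 0.06 on day 1 (2.25-fold lower, Q = 6.87e-20), then 0.12 ± 0.06 by day 6 (Q = 0.129), −0.45 ± 0.06 by day 8 (Q = 5.79e-08) and 0.07 ± 0.06 by day 10 (Q = 0.396). Without replicate 1 of day 6 its level on that day passed as higher (Q = 0.0487).

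The cytosolic counterpart MTHFD1, a trifunctional folate enzyme, rose from 103 ± 4.33 CPM (SD, n = 5) on day 0 to 154 ± 7.50 on day 1 and 193 ± 3.83 on day 2. MTHFD2 fell to day 1 and rose from day 1 to day 2, but was below day 0 on both days. The MTHFD2 to MTHFD1 ratio went from 2.23 on day 0 to 0.660 on day 1 and 0.744 on day 2 (exact permutation, Q = 0.011 for both). On day 6 the ratio was 2.39 (Q = 0.112, and 0.0314 without replicate 4 of day 0), and on days 8 and 10 it was below day 0 again, at 1.48 and 1.80 (Q = 0.011). The mitochondrial paralog MTHFD2L had few counts, at 3.47 to 5.63 CPM by day mean. The MTHFD2 to MTHFD2L ratio was 40.7 at baseline, 27.3 on day 1 and 32.1 by day 2 (exact permutation, Q = 0.0381 for both), with libraries that overlapped. The day 1 call was lost without replicate 3 or 5 of day 0 or replicate 1, 3, 4 or 5 of day 1, with Q up to 0.0682. The day 2 call was lost without replicate 3 or 5 of day 0 or replicate 1, 2, 3 or 4 of day 2, with Q up to 0.0857.

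ALDH1L2 encodes the mitochondrial enzyme that oxidizes formyl-folate to carbon dioxide and makes NADPH (chromosome 12, 105019784 to 105107643, minus strand, 23 exons). The day 0 libraries held 67.4, 75.4, 85.1, 72.3 and 95.3 CPM. Those of day 1 held 11.8, 16.5, 8.81, 8.06 and 9.64 CPM, and those of day 10 held 44.9, 55.0, 46.2, 29.5 and 48.0 CPM. Neither day overlapped with day 0. On day 1 it had the deepest fall of the 10 genes, and its log2 fold change was −2.84 ± 0.16 (7.15-fold lower, Q = 1.9e-19). On days 2, 4, 6 and 8 it was −2.36, −2.12, −1.15 and −1.96, and on day 10 it was −0.82 ± 0.13 (Q = 2.87e-06).

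The cytosolic paralog ALDH1L1 changed less, from 61.1 ± 1.84 CPM on day 0 to 38.7 ± 1.80 on day 1 and 54.9 ± 5.0 on day 10 (SD, n = 5). The ALDH1L2 to ALDH1L1 ratio was 1.29 on day 0, and 0.275, 0.371, 0.322, 0.621, 0.331 and 0.801 in the order of the later days. It was below day 0 in every library of all 6 days (exact permutation, Q = 0.011).

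**Figure D2:**
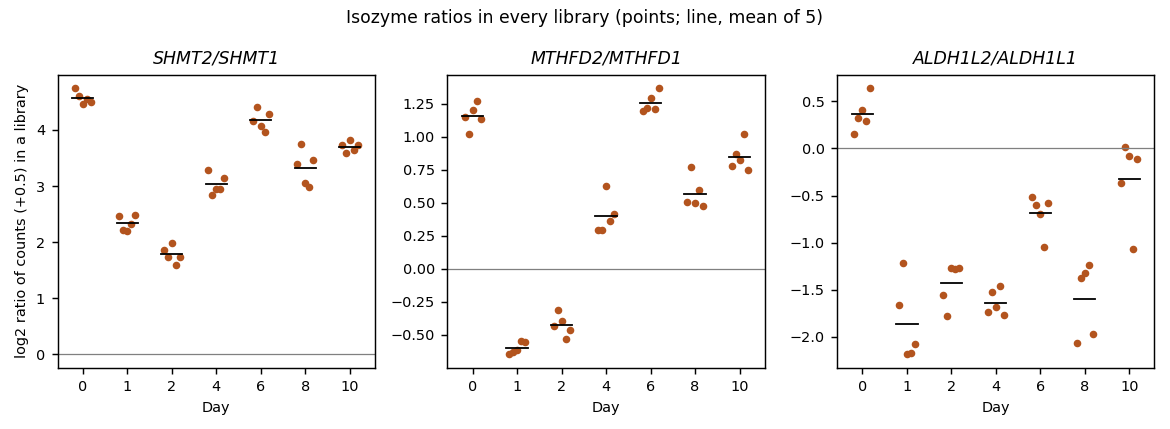
Log2 ratio of counts, with 0.5 added to each, of a gene to its isozyme in the same library (y axis) by day (x axis), with a point per library and a line at the mean of 5. Except for MTHFD2 to MTHFD1 on day 6, all libraries of every later day lie below those of day 0 in the 3 panels.

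Proline is made from glutamate by ALDH18A1, which makes the intermediate pyrroline-5-carboxylate (chromosome 10, 95605941 to 95656711, minus strand, 18 exons), and PYCR1, the mitochondrial reductase of the last step (chromosome 17, 81932384 to 81942412, minus strand, 7 exons). PYCR1 measured 327, 340.1, 309.6, 331 and 329.8 CPM on day 0. It measured 168, 185, 173, 166 and 178 CPM on day 2, and 289, 321, 248, 283 and 281 CPM on day 10. Day 2 lay below day 0 in all libraries, and day 10 overlapped with it through replicate 2 of day 10. The log2 fold change was −0.91 ± 0.06 on day 2 (1.88-fold lower, Q = 8.61e-17) and −0.20 ± 0.06 on day 10 (Q = 0.00605).

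ALDH18A1 stayed close to its baseline throughout. It measured 111, 111, 98.7, 109 and 111 CPM on day 0. On day 1 it measured 113, 119.8, 126, 125 and 116 CPM, and on day 6 it measured 84.8, 80.5, 83.4, 91.5 and 85.4 CPM. Day 1 lay above and day 6 below day 0 in every library. The log2 fold changes were small, at 0.15 ± 0.05 on day 1 (Q = 0.00811) and −0.03 ± 0.05 by day 2 (Q = 0.609). They reached −0.28 ± 0.05 by day 4 and −0.35 ± 0.05 by day 6 (1.27-fold lower, Q = 1.28e-07), and were −0.17 ± 0.05 on day 8 (Q = 0.00347) and 0.01 ± 0.05 by day 10 (Q = 0.971).

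The PYCR1 to ALDH18A1 ratio was accordingly 3.02 at baseline, 1.54 on day 1 and 1.64 by day 2 (exact permutation, Q = 0.011 for both). It was 2.89 on day 6 (Q = 0.387) and 2.61 by day 10 (Q = 0.011).

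Asparagine synthetase, ASNS, moves an amino group from glutamine to aspartate (chromosome 7, 97851677 to 97872542, minus strand, 13 exons). Per transcript length it had the highest level of the 10 genes on day 0. Its libraries of that day held 619.8, 613, 588, 656 and 630.1 CPM. The libraries of day 2 held 80.8, 90.4, 83.7, 94.5 and 84.8 CPM, and those of day 10 held 397, 412, 369, 374 and 357 CPM. The groups were far apart, with no library of days 2 or 10 within the day 0 range. The log2 fold change was −1.91 ± 0.07 on day 1 and −2.84 ± 0.07 by day 2 (7.15-fold lower, Q = 8.06e-31). It was −1.73, −0.86 and −1.68 on days 4, 6 and 8, and −0.70 ± 0.06 by day 10 (Q = 3.78e-12). Pseudogene entries named after a member were found only for ASNS. They held 0.872% as many counts as its protein-coding entry.

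The start of ASNS is shown because it carries the composite motif to which dimers of C/EBP and ATF proteins, ATF4 among them, are known to bind. The window below covers 94 to 35 bases before the start, at chr7:97872443-97872502 on the minus strand of GRCh38.p14 (RefSeq), written 5′ to 3′ with the motif in capitals.
ASNS: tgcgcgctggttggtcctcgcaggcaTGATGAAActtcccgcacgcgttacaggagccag
The motif searched was TGATGNAA on both strands, and its match lies 68 to 61 bases before the start. It was found in 3.62% of 35116 RefSeq promoters of the same length, 250 bases before to 50 after a start. Promoters were matched for 6 of the 10 genes, with 2 for ASNS, and the other genes are PSPH, SHMT2, ALDH1L2 and PYCR1. Among these 7 promoters the motif was in 1. CACGTG, the E-box, was in 7.26% of all promoters and in that of ALDH18A1, 136 to 131 bases before its start. TGACNNNGC, the core of the antioxidant response element, was in 13.3% of all promoters and in that of MTHFD2, 7 to 15 bases after its start on the opposite strand. These matches are letters in a window and were not linked to any measurement of binding.

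**Figure D3:**
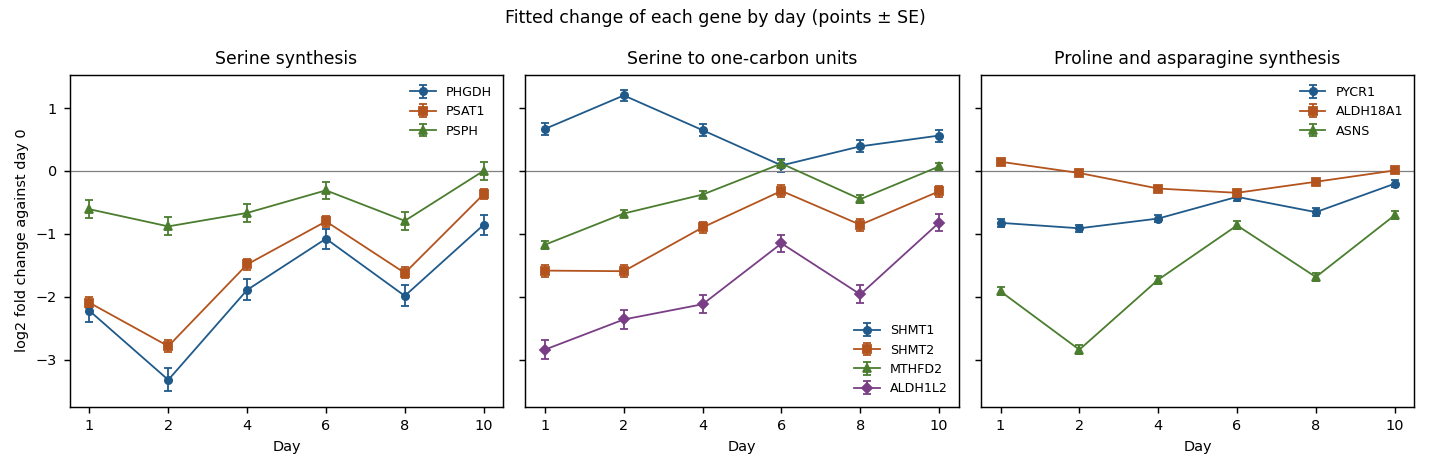
Fitted log2 fold change against day 0 (y axis; points with SE bars) by day (x axis, evenly spaced) for the 10 genes in 3 groups, serine synthesis, serine to one-carbon units, and proline and asparagine synthesis. PHGDH reaches −3.32 and ASNS −2.84 on day 2, SHMT1 runs above 0, and most lines dip again on day 8.

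Between successive time points, the genes did not all turn at the same time. From day 1 to day 2, PHGDH, PSAT1 and ASNS went on falling and ALDH18A1, which was above day 0 on day 1, fell (4 of 10, beside 19.4% of all genes). Their log2 changes were −1.10, −0.69, −0.93 and −0.18. SHMT1, MTHFD2 and ALDH1L2 already rose (3 of 10, beside 20.2%), by 0.53, 0.50 and 0.48. The rise of ALDH1L2 was lost without replicate 3, 4 or 5 of day 1 or replicate 3 of day 2, with Q of 0.0506 to 0.0894. PSPH did not pass (−0.27 ± 0.15, Q = 0.154), but did without replicate 3 of day 2, at −0.40 (Q = 0.0371).

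From day 2 to day 4, 6 rose (13.9% of all genes) and SHMT1 and ALDH18A1 fell (16.7%). The largest rises were those of PHGDH (1.43), PSAT1 (1.30) and ASNS (1.11). The smallest was that of PYCR1, at 0.15 (Q = 0.0456), and was lost without replicate 1, 4 or 5 of day 2 or replicate 1 or 3 of day 4, with Q of 0.0547 to 0.169. ALDH1L2 was at 0.24 ± 0.16 (Q = 0.292) although its libraries of day 4 all lay above those of day 2. From day 4 to day 6, 7 rose (6.09% of all genes), by 0.34 for PYCR1 to 0.97 for ALDH1L2, and SHMT1 fell by 0.56 (5.98%). PSPH was at 0.36 ± 0.14 (Q = 0.107). It passed without replicate 3 of day 6, at 0.44 (Q = 0.048), and with all biotypes summed, at 0.40 (Q = 0.000132). Its rise from day 2 to day 4 passed with all biotypes summed, at 0.25 (Q = 0.0137), beside 0.21 ± 0.15 (Q = 0.318) for the coding entry.

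The dip on day 8 stood out because few genes changed between days 6 and 8. The 10 genes were, however, chosen with earlier results of these data known, and the dip was not theirs alone. On days 6, 8 and 10, ASS1, argininosuccinate synthase, averaged 1136, 623 and 1106 CPM. The mitochondrial folate enzyme MTHFD1L averaged 123, 84.4 and 145 CPM. MTHFD1, at 104, 113 and 134 CPM, and ALDH1L1, at 57.0, 59.0 and 54.9 CPM, had no such dip. Changes of these related genes between those days were not tested. Of the 10 genes, 7 were lower on day 8 than on day 6, whereas 1.53% of all tested genes were, and 1 was higher, beside 1.03%. PHGDH fell by 0.91 (Q = 0.000654), PSAT1 by 0.82 (Q = 2.23e-08) and ASNS by 0.82 (Q = 2.4e-11) on the log2 scale. ALDH1L2 fell by 0.81, MTHFD2 by 0.56 and SHMT2 by 0.54, and in these 6 genes every day 8 library lay below every day 6 library. PYCR1 fell by 0.24 (Q = 0.015), with libraries that overlapped, and this was lost without replicate 5 of day 6 or replicate 3 or 4 of day 8 (Q of 0.0601 to 0.0732). ALDH18A1 rose by 0.18 (Q = 0.0347), which was lost without replicate 2 or 3 of day 6 or replicate 3 of day 8 (Q of 0.0717 to 0.118). PSPH was at −0.48 ± 0.15 (Q = 0.0645), and it passed without replicate 3 of day 6 (Q = 0.0291) or replicate 4 of day 8 (Q = 0.0386). It passed by DESeq2 as well, at −0.47 (Q = 0.0358), and with all biotypes summed, at −0.29 (Q = 0.0193), which would make 8 of 10 genes lower. SHMT1 was at 0.30 ± 0.09 (Q = 0.0769), and it passed without replicate 4 of day 6 (Q = 0.0329) or replicate 2 of day 8 (Q = 0.0454). The density of the cultures was adjusted on day 6, and the part of this handling in the dip was not tested. Density was adjusted on day 8 too, but the cells of that day were collected just before their medium was replaced.

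From day 8 to day 10, 9 of 10 rose (5.08% of all genes) and none fell (4.97%). PSAT1 rose by 1.25, ALDH1L2 by 1.14, PHGDH by 1.13 and ASNS by 0.98, and the remaining rises were 0.18 to 0.79. SHMT1 was at 0.17 ± 0.09 (Q = 0.288). Set against the low of day 2, 8 genes were higher on day 10 (16.5% of all genes), led by PHGDH at 2.46 ± 0.19 and PSAT1 at 2.41 ± 0.09, and SHMT1 was lower (18.8%), at −0.64 ± 0.09.

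The order of the levels can be read only per length, in CPM per kilobase of the annotated representative transcript (mean ± SD, n = 5). On day 0, ASNS was at 261 ± 10.4, followed by SHMT2 at 184 ± 19.2, PYCR1 at 144 ± 4.93 and PSAT1 at 133 ± 4.33. PHGDH was at 98.9 ± 12.9, MTHFD2 at 52.2 ± 2.75, ALDH18A1 at 32.3 ± 1.63, PSPH at 16.3 ± 1.39, ALDH1L2 at 10.6 ± 1.50 and SHMT1 at 6.53 ± 0.525. The ranges of mean ± SD of neighbours in this order did not overlap. On day 2 the order was led by PYCR1 at 76.7 ± 3.40 and SHMT2 at 60.8 ± 8.05, before ASNS at 36.4 ± 2.32, MTHFD2 at 32.6 ± 1.95 and ALDH18A1 at 31.6 ± 0.975. PSAT1 was at 19.3 ± 1.63, SHMT1 at 15.0 ± 0.541, PHGDH at 9.89 ± 1.14, PSPH at 8.89 ± 2.19 and ALDH1L2 at 2.08 ± 0.191. On that day ASNS and MTHFD2, MTHFD2 and ALDH18A1, and PHGDH and PSPH overlapped within their SD. With the mean length of all coding transcripts in place of the representative transcript, PSPH came to 31.5 and ALDH18A1 to 32.4 on day 0. On day 2 that choice changed the order, with SHMT1 (24.2) above PSAT1 (23.6), PSPH (17.2) above PHGDH (12.6), and MTHFD2 (63.7) beside ASNS (63.4). The order thus depends on the transcript assumed.

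The count table also holds noncoding entries of the same symbols, which the choice of the genes did not use. The share of a symbol's counts in its protein-coding entry was compared with day 0 in 7 genes with enough other counts. Of 42 exact permutation tests, 0 passed after adjustment (lowest Q = 0.0667), with 8 at an unadjusted p under 0.05. The smallest p that these permutation tests allow is 0.00794, so none can pass after adjustment unless several others reach it too. The count thus does not show that the shares were unchanged. For SHMT2 the share was 77.5%, 80.9%, 68.4%, 73.4% and 68.5% on day 0 and 60.6%, 59.5%, 55.9%, 62.6% and 65.5% on day 1, without overlap (exact permutation, p = 0.00794, Q = 0.0667). Its nonsense-mediated decay entry held 395 ± 113 counts per library on day 0 and 373 ± 40.2 on day 1 (SD, n = 5), while its protein-coding entry held 2321 ± 491 and 813 ± 61.9.

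For ALDH1L2 the share went the other way, from 47.1%, 55.3%, 53.8%, 53.8% and 69.4% on day 0 to 91.1%, 74.8%, 90.0%, 77.8% and 83.3% on day 2 (exact permutation, p = 0.00794, Q = 0.0667). Its retained-intron entry held 368 ± 120.0 counts per library at baseline, 14.6 ± 10.8 on day 1, 22.6 ± 11.4 by day 2 and 201 ± 54.1 by day 6. With all entries of the symbol summed, the log2 fold change of ALDH1L2 was −3.25 on day 1 and −2.88 on day 2, deeper than that of the coding entry alone, and its rise from day 2 to day 4 then passed, at 0.88 (Q = 1.13e-11). Over whole libraries, retained-intron entries took 6.52% to 8.05% of counts on day 0 and 4.58% to 5.77% on day 1.

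For ASNS the share was 96.2% to 97.9% on day 0 and 90.0% to 93.2% on day 6 (exact permutation, p = 0.00794, Q = 0.0667). Its retained-intron entry held 69.6 ± 37.4 counts per library on day 0 and 135 ± 20.2 on day 6, and its protein-coding entry 3622 ± 506 and 2335 ± 258. The method that assigned reads to transcripts divides reads shared by coding and noncoding transcripts of a gene, so these entries are estimates that depend on each other.

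**Figure D4:**
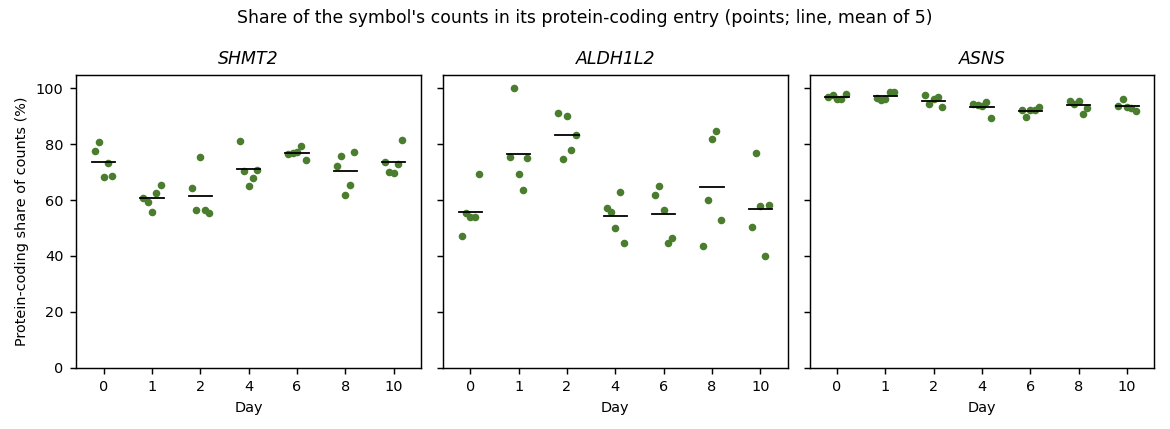
Share of a symbol's counts held by its protein-coding entry, in percent (y axis, 0 to 105), by day (x axis) for SHMT2, ALDH1L2 and ASNS, with a point per library and a line at the mean of 5. The mean of SHMT2 is 73.7% on day 0 and 60.8% on day 1, that of ALDH1L2 is 55.9% on day 0 and 83.4% on day 2, and that of ASNS stays above 92%.

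The 10 genes were also set beside related genes. Over the 35 libraries, which differ mainly by day, Pearson's r of the log2 CPM of a gene with the mean of the other 9 was 0.727 to 0.968 for 8 of them, −0.708 for SHMT1 and −0.0972 for ALDH18A1. The closest pairs were ASNS and PSAT1 (r = 0.984), ASNS and PHGDH (r = 0.965), and PHGDH and PSAT1 (r = 0.948). Outside the 10 genes, the profiles most like their mean were those of SLC7A1 (r = 0.977) and SLC7A5 (r = 0.969), both amino acid transporters, GAS7 (r = 0.967), MTHFD1L (r = 0.956), a mitochondrial folate enzyme, and EPRS (r = 0.954), a tRNA synthetase. For a single gene, the most similar other gene was SLC6A9, a glycine transporter, for PSAT1 (r = 0.991), SLC7A5 for PYCR1 (r = 0.979), AARS, the alanine tRNA synthetase, for SHMT2 (r = 0.972), LTF, lactoferrin, for MTHFD2 (r = 0.964), SNTB1 for ALDH1L2 (r = 0.956), PAQR4 for SHMT1 (r = 0.946), PRPF19, a splicing factor, for ALDH18A1 (r = 0.893) and UHRF1BP1 for PSPH (r = 0.847). For PHGDH it was ASNS and for ASNS it was PSAT1. All genes share libraries and days, so these values describe shapes over time.

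The transcription factor ATF4 averaged 856 ± 49.6 CPM at baseline, 293 ± 15.1 on day 1 and 225 ± 10.2 by day 2 (SD, n = 5). It stood at 821 ± 46.0, 587 ± 34.5 and 667 ± 43.7 CPM on days 6, 8 and 10. Its log2 fold change was −1.93 on day 2 (Q = 3.2e-28), −0.06 by day 6 (Q = 0.43) and −0.54 by day 8. Of 16 genes listed for the integrated stress response, its kinases, factors and targets, 12 were lower on day 1 and 3 higher, 13 lower and 1 higher on day 2, 11 lower and 3 higher on day 6, and 12 lower and 1 higher on day 10. Of all tested genes, 27.3% were lower and 25.4% higher on day 1, 24.4% and 23.2% on day 2, 17% and 17.5% on day 6, and 15.8% and 16.1% on day 10. The list's median log2 fold change was −1.56 and −1.96 on days 1 and 2, and −0.67 and −0.56 on days 6 and 10. ATF3, a stress-induced factor, was the lowest on both day 1 (−3.05) and day 10 (−2.73). DDIT4, an inhibitor of the mTOR pathway, was the highest, at 0.37 on day 1 (Q = 0.04) and 1.36 on day 10. This list was chosen with results of these libraries known, and is no independent evidence of a direction.

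The remaining enzymes of the same pathways are given by list, to be read beside the same shares of all tested genes, and no difference between a list and other genes was tested. Highest and lowest refer here to the genes of a list that passed the threshold. Of the 28 other folate and glycine genes, 13 were lower and 8 higher on day 1 and 4 were lower and 8 higher on day 10, with median log2 fold changes of −0.16 and −0.04. TYMS, thymidylate synthase, was the highest, at 1.20 on day 1 and 0.77 on day 10. DMGDH, which releases carbon from dimethylglycine, was the lowest. It had 103 counts over the day 0 libraries and 0 on day 1, which is at least 36.2-fold lower against a floor of 3 counts over the 5 libraries, and 3 counts on day 10. The list's medians are the same with DMGDH at its bound, since it stays the lowest.

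Of 15 other genes of proline, ornithine and glutamate metabolism, 4 were lower and 7 higher on day 1 and 4 were lower and 1 higher on day 10. P4HA2, a prolyl hydroxylase subunit, rose by 1.67 on day 1, and PYCRL, the cytosolic reductase of proline synthesis, by 1.35 on day 1 and 0.67 on day 10. ARG2, mitochondrial arginase, was the lowest on both days, at −1.17 and −1.35.

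Of 16 aspartate, asparagine and transaminase genes, 6 were lower and 5 higher on day 1 and 5 were lower and 4 higher on day 10. ASS1, argininosuccinate synthase, had the deepest fall on day 1 (−2.71) and GOT2, the mitochondrial aspartate transaminase, the largest rise (0.98). On day 10, BCAT1, a transaminase of branched-chain amino acids, was the lowest (−1.27) and ADSL, an enzyme of purine synthesis, the highest (0.44).

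Of 12 genes listed for the use of serine, 4 were lower and 3 higher on day 1 and 4 were lower and 2 higher on day 10. CBS, which joins serine and homocysteine, was the lowest on day 1 (−2.42) and SARS, the cytosolic serine tRNA synthetase, on day 10 (−0.71). SARS2, its mitochondrial counterpart, was the highest on both, at 0.99 and 0.95. Of 10 carriers listed for serine, proline, asparagine and glycine, 4 were lower and 3 higher on day 1. On day 10, 3 were lower and 1 higher. The glycine carrier SLC6A9 was the lowest, at −2.81 and −0.36, SLC36A4 the highest on day 1 (1.69) and SLC38A2 on day 10 (0.65).

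**Figure D5:**
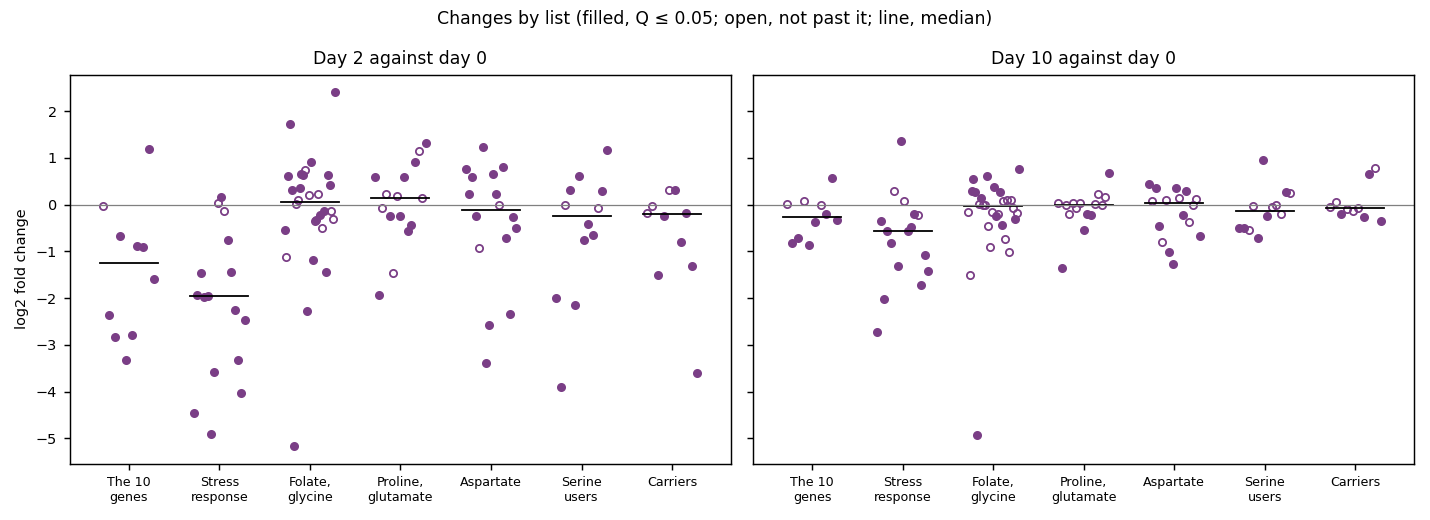
Log2 fold change against day 0 (y axis) of each gene of 7 lists (x axis) on day 2 and on day 10, filled where Q ≤ 0.05 and open where not, with a line at the median. On day 2 the medians of the 10 genes (−1.25) and of the stress response list (−1.96) lie lowest, and on day 10 they are −0.26 and −0.56.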

How the data were processed

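Per the study's methods, the authors pseudoaligned reads of a strand-specific library kit with Kallisto 0.44.0 (GRCh38.p12, adjusted for GC content) and summarized them with length adjustment. The deposited values are whole-number estimated counts per gene symbol and transcript biotype, without normalization for depth.

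From these, protein-coding entries with a count were tested here with edgeR 4.0.16 (glmQLFit and glmQLFTest, TMM factors of 0.929 to 1.08, day as factor, 35 libraries, R 4.3.3), with Benjamini–Hochberg adjustment over 17999 genes (Q) and Q ≤ 0.05 as the threshold. CPM are counts per 1000000 of the TMM-scaled library. Gene ratios used counts + 0.5. Ratios and shares were compared by exact two-sided permutation tests, with Q over all tests of the family. The values of 1 gene pair and of 1 marker are not reported here. The scripts were tested on simulated data. Alternatives were DESeq2 1.42.0, other factors, filters and samples, all biotypes summed, the replicate block and each library left out. The members, lists and alternatives were chosen with earlier results of these data known. Named genes were the members, their isozymes, ATF4, the highest and lowest called gene of each list on days 1 and 10, and the most similar profiles. No same-day libraries were alike within sampling noise. Positions came from GENCODE release 44 and promoters from RefSeq.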

Additional observations from a re-analysis of the deposited data

Results flagged for a closer look

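In 3 of 70 groups of 5 libraries a value stood apart from the other 4, where chance gives about 1 in 20. Replicate 1 of day 1 had the lowest MTHFD2 level, 91.9 CPM, with the other 4 at 103 to 105. Replicate 2 of day 8 had the highest, 184 CPM, with the other 4 at 160.0 to 166. For ALDH18A1, replicate 3 of day 0 was the lowest, at 98.7 CPM, with the other 4 at 109 to 111.

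ALDH18A1 was the only gene of the 10 to lie wholly on one side of day 0 on some days and wholly on the other side on other days. Its log2 fold change was 0.15 on day 1, where every library was above every day 0 library, and −0.28 on day 4, −0.35 on day 6 and −0.17 on day 8, where every library was below. The fall from day 1 to day 2 was tested in the same fit, at −0.18 ± 0.05 (Q = 0.00165), and that from day 2 to day 4 at −0.25 ± 0.05 (Q = 5.56e-05). The difference between day 1 and days 6 or 8 was not tested.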

How the results depend on the processing

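Of 120 fitted changes of the 10 genes, 113 to 119 kept their direction and their side of the threshold under each alternative fit, and 1166 of 1200 did so with a library left out. Deviations from the day mean were hardly correlated between day 0 and later libraries of the same replicate number (r of −0.0686 to 0.0705, 0 of 30 above 0.1). Later days were not compared with each other in this way. The replicate block changed no call but turned PSPH on day 10 from 0.00 to −0.0014, with neither called. Changes that turned direction were all uncalled. PSPH on day 10 was −0.00066 with RLE factors and −0.045 with all biotypes summed, and −0.032 to 0.062 with a library left out. ALDH18A1 on day 2 was 0.10 by library size only, 0.0068 with all biotypes and 0.00073 with only the days compared, on day 10 it was −0.023 to 0.047 with a library left out, and from day 2 to day 10 −0.022 by library size only. SHMT2 from day 1 to day 2 was 0.0040 by library size only and −0.076 to 0.045 with a library left out. The MTHFD2 to MTHFD2L ratio turned with all biotypes, to −0.13 on day 4 and −0.071 on day 8. Scaling by library size only shifted the log2 fold change of a gene by a median of 0.11 on days 1 and 4 and 0.13 on day 2. This scaling added MTHFD2 as higher on days 6 (1 higher in all) and 10 (2 in all).

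With a fold above 2 asked for, genes lower were 5 on day 2, 4 on days 4 and 8, 2 on day 6 and 0 on day 10, and genes higher were 0 on days 1, 4, 8 and 10. From day 6 to day 8, 2 were higher with the filter on low counts and by DESeq2, and 0 with only the days compared, where the fall of PYCR1 (Q = 0.0615) and, from day 8 to 10, the rise of ALDH18A1 (Q = 0.0645) were lost as well. With a library left out, 0 to 2 were higher from day 6 to day 8 and 0 to 1 on day 6. Medians in place of means, a coarser test, left 0 of 54 ratios past the threshold (lowest Q = 0.0598), with every direction kept among the 45 called.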
